A study of Mus musculus with 6 samples.

Results

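The Krüppel-like factors (KLFs) described here are 9 transcription factors, Klf2, Klf3, Klf4, Klf5, Klf6, Klf7, Klf9, Klf10 and Klf13, in basal epithelial cells of the mouse prostate. They were taken as a named list, found in the deposited transcript tables by position and length against mouse gene symbols, and are 9 of 25372 genes with a value. All 9 passed the filter of a mean of at least 1 FPKM (a count of fragments divided by transcript length and by library size) over the 6 libraries, which left 10313 genes tested. The study compared basal cells from the distal ducts with basal cells from the proximal ducts, the part of the ductal tree nearest the urethra, in 3 RNA libraries each, numbered 1 to 3 in each group. All libraries came from C57BL/6 mice 8 to 12 weeks old, with no transgene or treatment named in the labels. The labels describe antibody staining and cell sorting but not the markers or gates, and they also describe a culture of primary stromal cells. Since nothing in them ties a library to its own animal, the spread that the p-values below rest on may be technical.

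KLFs bind CACCC and GC-rich DNA elements through a conserved set of C-terminal zinc fingers, and differ mainly in the N-terminal domains that recruit activators or repressors. Klf4 and Klf5 act in epithelial differentiation and proliferation, Klf3 is a repressor that recruits CtBP, and Klf9, Klf10 and Klf13 can recruit the Sin3a corepressor. Several members, among them Klf2, Klf4, Klf6 and Klf10, are rapidly induced by serum, stress or mechanical signals and appear with Fos, Jun and Egr1 in published signatures of tissue dissociation, which is why single libraries are followed here beside such genes.

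None of the 9 KLF genes passed the test between proximal and distal basal cells (limma on log2(FPKM + 1), Benjamini-Hochberg adjusted p under 0.05), against 4.55% of all tested genes that were higher and 2.5% that were lower in proximal cells (7.05% in either direction). At an unadjusted p under 0.05 there were 5 members, Klf2, Klf3, Klf6, Klf9 and Klf13, a share to be read against 24.1% of all tested genes. In 2 members, Klf3 and Klf13, all 3 proximal libraries were above all 3 distal ones, and in none were all 3 distal libraries above, against 15.9% and 13% of all tested genes (28.9% without overlap in either direction). When both libraries numbered 1 were left out, Klf2, Klf6 and Klf9 passed as lower in proximal cells, 3 of 9 members against 13.6% of all genes. In each of these 3 members a library numbered 1 made the groups overlap, so that fit restates their arrangement and is not a separate test. Each difference below is log2(FPKM + 1) in proximal minus distal cells, which understates the change of a gene with a low level.

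The levels, in FPKM and so per length, spanned a wide range. Klf6 was the highest member, with 511 ± 105 (SD, n = 3) in distal and 387 ± 17.2 (SD, n = 3) in proximal cells, above 98.8% of tested genes. Klf5 and Klf10 followed in both groups and their libraries overlapped each other. Klf4 came next, then Klf9 and Klf3, whose order differed between the groups: in distal cells every Klf9 library was above every Klf3 library, and in proximal cells every Klf3 library was above every Klf9 library. Klf4 overlapped Klf9 in distal cells and Klf3 in proximal cells. Klf7, Klf13 and Klf2 were the lowest, overlapping from one to the next in distal cells, while in proximal cells Klf2 lay below both of the others. Klf2 was above 33.6% of tested genes. Among the 7 members with 1 expressed transcript its deposited 95% interval was the widest, at 9.89 to 19.9% of its value to each side, against 0.803 to 1.07% for Klf6. The 3 expressed Klf7 transcripts had wider ones, at 17.6 to 45.4% to each side. All these intervals concern a single library and not the spread between libraries. Those of Klf7 belong to overlapping transcripts between which the estimate was split, so they need not reflect counting alone.

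**Figure D1:**
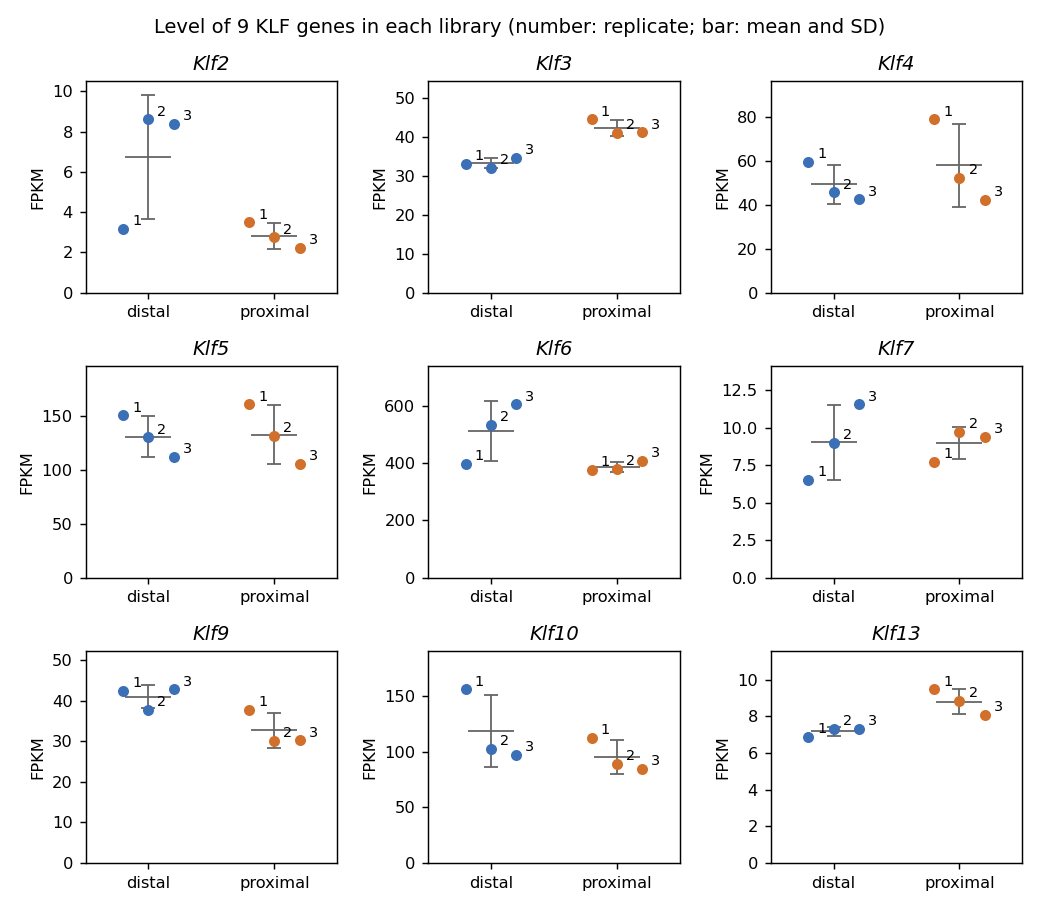
FPKM of each of the 9 KLF genes in the 3 distal and 3 proximal libraries, 1 panel per gene with its own linear axis from 0; digits mark the library number and bars are the group mean with its SD. Klf2 and Klf6 are highest in the distal libraries 2 and 3, and the Klf3 and Klf13 proximal libraries lie above their distal ones.

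Klf2 and Klf6 respond quickly to stimuli, Klf2 being best known as a flow-responsive factor of endothelial cells and a quiescence factor of T cells, and Klf6 as an injury-induced factor studied as a tumour suppressor in prostate. In the distal libraries 1, 2 and 3, Klf2 was at 3.17, 8.61 and 8.39 FPKM, and in proximal libraries 1, 2 and 3 at 3.50, 2.74 and 2.23 FPKM. Distal libraries 2 and 3 stood above the other 4, and distal library 1 lay within the proximal range, so the groups overlapped. The deposited interval of Klf2 in distal library 1 was 2.59 to 3.75 FPKM, clear of that in distal library 2, 7.76 to 9.47 FPKM. Its difference was -0.93 ± 0.32 (SE), with a 95% interval of -1.66 to -0.20 (limma, adjusted p = 0.121). Klf6 was at 397, 532 and 605 FPKM in distal cells and at 375, 379 and 407 FPKM in proximal cells, in the same order of libraries. The same arrangement held as in Klf2, with distal library 1 inside the proximal range and distal libraries 2 and 3 above it. The difference of Klf6 was -0.38 ± 0.16 (SE), 95% interval -0.76 to -0.01 (limma, adjusted p = 0.202).

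The outcome of the test for both genes changed when libraries numbered 1 were left out. Since distal library 1 made their groups overlap, this change follows from the values above and is not a separate test. Between the 2 libraries numbered 1 the difference of Klf2 was 0.11, and over the libraries numbered 2 and 3 it was -1.45. For Klf6 these values were -0.08 and -0.53. Without distal library 1 alone, Klf2 had a difference of -1.33 (limma, adjusted p = 0.00575) and Klf6 one of -0.55 (limma, adjusted p = 0.0281), where 6.03% of all genes passed as lower and 5.04% as higher. Without both libraries numbered 1, Klf2 passed as lower in proximal cells at -1.45 ± 0.13 (SE; limma, adjusted p = 0.00190) and Klf6 at -0.53 ± 0.10 (SE; limma, adjusted p = 0.0174). More genes passed in that fit, 13.6% lower and 9% higher, so these calls are to be read against that share.

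Klf9, a gene induced by glucocorticoids and thyroid hormone, was at 42.5, 37.7 and 42.7 FPKM in the distal and 37.7, 30.1 and 30.3 FPKM in the proximal libraries. Proximal library 1 and distal library 2 were nearly level, and apart from that pair the distal libraries were the higher ones. The difference of Klf9 was -0.32 ± 0.12 (SE), 95% interval -0.60 to -0.04 (limma, adjusted p = 0.154). It passed without proximal library 1, at -0.43 (limma, adjusted p = 0.0481; 5.46% of all genes lower, 5.28% higher), and without both libraries numbered 1, at -0.40 (limma, adjusted p = 0.0326). Klf10, first described as a TGF-beta-inducible early gene, was at 156, 103 and 97.4 FPKM in the distal and 113, 89.1 and 84.5 FPKM in the proximal libraries. Library 1 was the highest of its group in both, and proximal library 1 lay above distal libraries 2 and 3, so the groups overlapped. The difference of Klf10 was -0.29 ± 0.20 (SE), 95% interval -0.74 to 0.16 (limma, adjusted p = 0.409). Without distal library 1 it was -0.08 (limma, adjusted p = 0.752).

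Klf3 was the member with the smallest p. It was at 33.1, 32.2 and 34.6 FPKM in the distal and 44.6, 41.1 and 41.2 FPKM in the proximal libraries. All 3 proximal libraries were above all 3 distal ones, and the spread within each group was small, 33.3 ± 1.23 (SD, n = 3) against 42.3 ± 2.00 (SD, n = 3). The difference was 0.34 ± 0.09 (SE), 95% interval 0.12 to 0.55, which missed the threshold (limma, adjusted p = 0.0714). It was positive both between the libraries numbered 1, at 0.42, and over those numbered 2 and 3, at 0.29. The start of Klf3 overlaps the antisense gene Gm20033 and C230096K16Rik, and the sources used here do not say that counting used strand, so reads of these genes could be mixed. Klf13, a repressor and activator studied in T cells and heart, was at 6.89, 7.34 and 7.33 FPKM in the distal and 9.47, 8.86 and 8.08 FPKM in the proximal libraries. Again the groups did not overlap, with proximal above, and the difference was 0.26 ± 0.11 (SE), 95% interval 0.00 to 0.52 (limma, adjusted p = 0.207).

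Klf4 and Klf5, the members tied most closely to epithelia, did not differ between the groups beyond the spread of their libraries. Klf4 was at 59.6, 45.8 and 42.6 FPKM in the distal and 79.2, 52.5 and 42.5 FPKM in the proximal libraries, with a difference of 0.20 ± 0.23 (SE), 95% interval -0.33 to 0.72 (limma, adjusted p = 0.644). Klf5 was at 151, 130 and 112 FPKM in the distal and 161, 132 and 106 FPKM in the proximal libraries, with a difference of 0.01 ± 0.17 (SE), 95% interval -0.39 to 0.41 (limma, adjusted p = 0.984). In both genes library 1 was the highest of each group and library 3 the lowest, and the groups overlapped throughout. Klf7, known from neurons, was at 6.53, 8.97 and 11.6 FPKM in the distal and 7.73, 9.73 and 9.38 FPKM in the proximal libraries. Here library 1 was the lowest of each group, and the difference was 0.01 ± 0.19 (SE), 95% interval -0.43 to 0.46 (limma, adjusted p = 0.977). These intervals reach 0.41 in Klf5, 0.46 in Klf7 and 0.72 in Klf4, so equal levels are not shown.

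**Figure D2:**
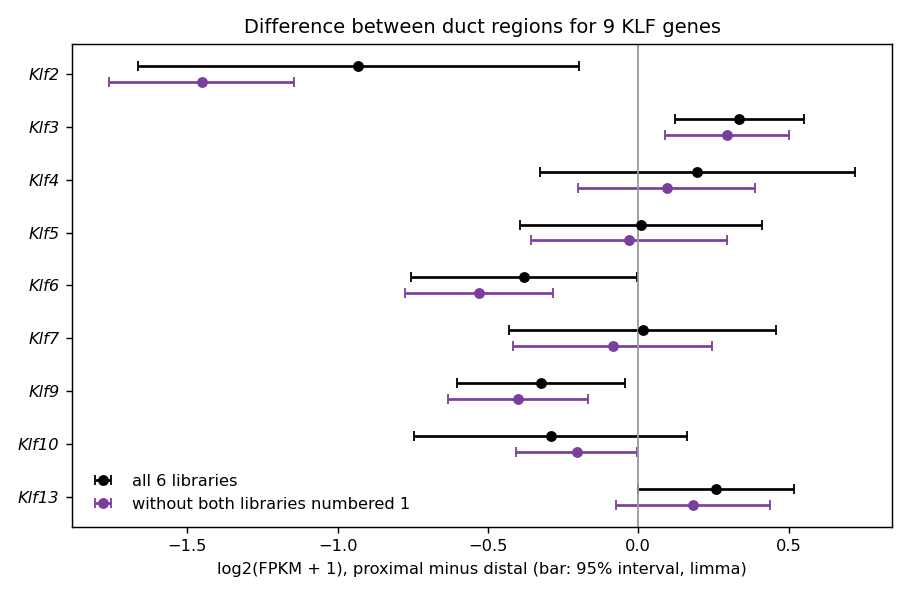
Difference in log2(FPKM + 1), proximal minus distal, of the 9 KLF genes with 95% intervals from limma, in black over all 6 libraries and in purple without both libraries numbered 1. Klf2 and Klf6 lie at -0.93 and -0.38 in black and at -1.45 and -0.53, with shorter intervals, in purple, while Klf3 is positive in both (0.34 and 0.29).

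Most of these values rest on 1 transcript. Klf2, Klf4, Klf6 and Klf9 each have 1 deposited transcript, and Klf5, Klf10 and Klf13 have 2, of which 1 is above 0. Klf3 has 5, of which 2 are above 0 and 1 carries 86.5% of its FPKM. Klf7 has 4, of which 3 are above 0, with 51.6%, 31.0% and 17.3% of its FPKM. The main Klf7 transcript, of 1336 bases, was at 2.70, 4.87 and 5.09 FPKM in distal and 3.87, 6.27 and 5.03 FPKM in proximal cells. The second, of 1127 bases, was at 2.85, 2.42 and 4.79 FPKM in distal and 2.22, 1.74 and 2.71 FPKM in proximal cells, and both were estimates split by Cufflinks between overlapping models. The main Klf3 transcript was at 28.2, 27.7 and 31.0 FPKM in distal and 37.9, 36.0 and 35.4 FPKM in proximal cells, the same separation of the groups as in the summed value. On mm10 (GENCODE M21) the genes, with their strand, are Klf2 at chr8:72319033-72321656 (plus), Klf3 at chr5:64803388-64832901 (plus), Klf4 at chr4:55527143-55532466 (minus), Klf5 at chr14:99298691-99315036 (plus) and Klf6 at chr13:5861482-5870394 (plus). The other members are Klf7 at chr1:64029447-64122282 (minus), Klf9 at chr19:23141226-23168134 (plus), Klf10 at chr15:38291463-38300706 (minus) and Klf13 at chr7:63886351-63938915 (minus).

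Promoter sequence, the 250 bases before the RefSeq start, is printed for 4 of the 5 members that reached an unadjusted p under 0.05. It shows where the counted motifs lie, and the promoters were not compared with each other. The sequences are from RefSeq (GRCm38.p6), 5′ to 3′ on the strand of the gene, and 7 of the 9 members had an entry; Klf5 and Klf10 did not. Klf2 is at chr8:72318812-72319061 on the plus strand, Klf6 at chr13:5861239-5861488 on the plus strand and Klf9 at chr19:23140976-23141225 on the plus strand. Klf13 is at chr7:63938916-63939165 on the minus strand. These windows end at the RefSeq start. In Klf2 and Klf6 the GENCODE gene begins shortly before that start, so the last bases of both windows, with the GGGTG of Klf2, lie after the start of the GENCODE gene. That of Klf3 is left out because a longer stretch of it lies after the GENCODE start. Capitals mark CACCC, the core of a KLF element, on either strand (GGGTG on the other), and TGANTCA, the letters of an AP-1 element.
Klf2: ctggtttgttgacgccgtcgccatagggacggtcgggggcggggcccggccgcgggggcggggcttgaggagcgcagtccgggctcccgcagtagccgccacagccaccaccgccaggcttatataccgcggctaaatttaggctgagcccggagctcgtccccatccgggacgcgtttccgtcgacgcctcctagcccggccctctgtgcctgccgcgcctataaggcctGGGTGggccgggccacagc
Klf6: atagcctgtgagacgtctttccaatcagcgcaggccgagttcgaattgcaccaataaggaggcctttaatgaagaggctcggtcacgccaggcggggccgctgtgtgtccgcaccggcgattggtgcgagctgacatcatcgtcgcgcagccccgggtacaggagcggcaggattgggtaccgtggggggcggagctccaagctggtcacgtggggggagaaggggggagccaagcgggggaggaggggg
Klf9: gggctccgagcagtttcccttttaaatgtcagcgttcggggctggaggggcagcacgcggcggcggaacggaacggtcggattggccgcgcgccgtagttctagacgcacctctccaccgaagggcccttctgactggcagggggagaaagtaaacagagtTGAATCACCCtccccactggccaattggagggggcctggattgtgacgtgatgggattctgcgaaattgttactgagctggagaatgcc
Klf13: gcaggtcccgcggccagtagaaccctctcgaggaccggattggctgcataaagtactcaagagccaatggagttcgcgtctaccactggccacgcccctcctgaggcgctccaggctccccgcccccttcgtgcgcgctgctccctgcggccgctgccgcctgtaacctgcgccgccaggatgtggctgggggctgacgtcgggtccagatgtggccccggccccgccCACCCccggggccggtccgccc
CACCC on either strand was in 5 of the 7 promoters, with 5 matches in Klf3, 3 in Klf7 and 1 each in Klf2, Klf9 and Klf13, and none in Klf4 or Klf6; 52.0% of all 32851 promoters in the table hold it. GGGCGG on either strand, left in lower case, was in each of the 7 except Klf9, against 32.7% of all promoters. The window of Klf7 lies wholly inside its GENCODE gene, so all its matches lie after the GENCODE start. In Klf3 the CACCC matches at -120, -111 and -48 from the RefSeq start and the GGGCGG at -89 also lie after it. The 7 promoters were 59.2 to 78.4% G and C against a median of 52.4% over all promoters, and GGGCGG is itself made of G and C only. TGANTCA was found in Klf9 only, as TGAATCA starting 89 bases before the start and sharing its last 2 letters with the CACCC that starts 84 bases before it; 6.75% of all promoters hold TGANTCA. TGACGTCA, the CArG box and TATAAA, held by 1.55%, 1.47% and 12.4% of all promoters, were in none of the 7. These are matches of letters and not measured binding, and no match says only that the letters are not in these 250 bases.

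Dissociation-induced genes were followed in 3 lists, of AP-1 and immediate early genes, of feedback and stress genes and of heat shock genes, from which the KLFs were left out and in which 54 genes were tested. As the mean deviation of each library from the gene's mean over the 6, on the log2(FPKM + 1) scale, they stood at -0.01, 0.35 and 0.37 in the distal libraries 1, 2 and 3 and at -0.19, -0.27 and -0.24 in the proximal ones. Distal libraries 2 and 3 were thus the high ones, distal library 1 lay between, and the 3 proximal libraries were low. The lists differed in how far apart these were. The distal libraries stood at 0.04, 0.48 and 0.48 for AP-1 and immediate early genes. They stood at 0.06, 0.15 and 0.10 for feedback and stress genes, and at -0.18, 0.45 and 0.59 for heat shock genes. On this scale Klf2 stood at -0.33, 0.88 and 0.84 in the distal and -0.22, -0.48 and -0.70 in the proximal libraries, and Klf6 at -0.15, 0.27 and 0.45 and at -0.23, -0.22 and -0.12. Distal libraries 2 and 3 above the other 4, an arrangement chosen after the values were seen, was found in these 2 of the 9 members, in 32 of the 54 dissociation genes (59.3%) and in 19.2% of all tested genes. In both members, unlike the mean of the lists, distal library 1 fell within the proximal range. Single genes of the lists differed in this, so it does not set the members apart. Distal library 1 was within the proximal range in Jun, Atf3 and Hspa1a and above it in Egr1, Junb and Ier2.

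The other members were arranged otherwise. Klf4, Klf5 and Klf10 were highest in library 1 of both groups, as were 22.2% of the dissociation genes and 25.0% of all tested genes. Klf10 stood at 0.57, -0.03 and -0.11 in the distal libraries, against -0.01, 0.35 and 0.37 for the dissociation lists. Klf3 and Klf13 were lower in every distal than in every proximal library, the opposite side from the lists. Klf9 stood at 0.21, 0.05 and 0.22 in the distal and 0.05, -0.27 and -0.26 in the proximal libraries, with distal library 1 among the high ones. Klf7, like Klf6, had the lists' order in the distal libraries, at -0.39, 0.02 and 0.35, but not in the proximal ones, at -0.17, 0.12 and 0.07. Klf3 and Klf9 had it in the proximal libraries only. By the stricter rule that a gene must order the libraries as the lists do within both groups, 0 of 9 members followed them, as did 3 of the 54 dissociation genes and 2.80% of all tested genes. That order rests on libraries 2 and 3 being nearly level, at 0.35 and 0.37 in distal and -0.27 and -0.24 in proximal cells. The 3 lists do not share 1 order either, so these counts do not measure likeness to dissociation genes. The part of dissociation in any of these values was not tested.

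**Figure D3:**
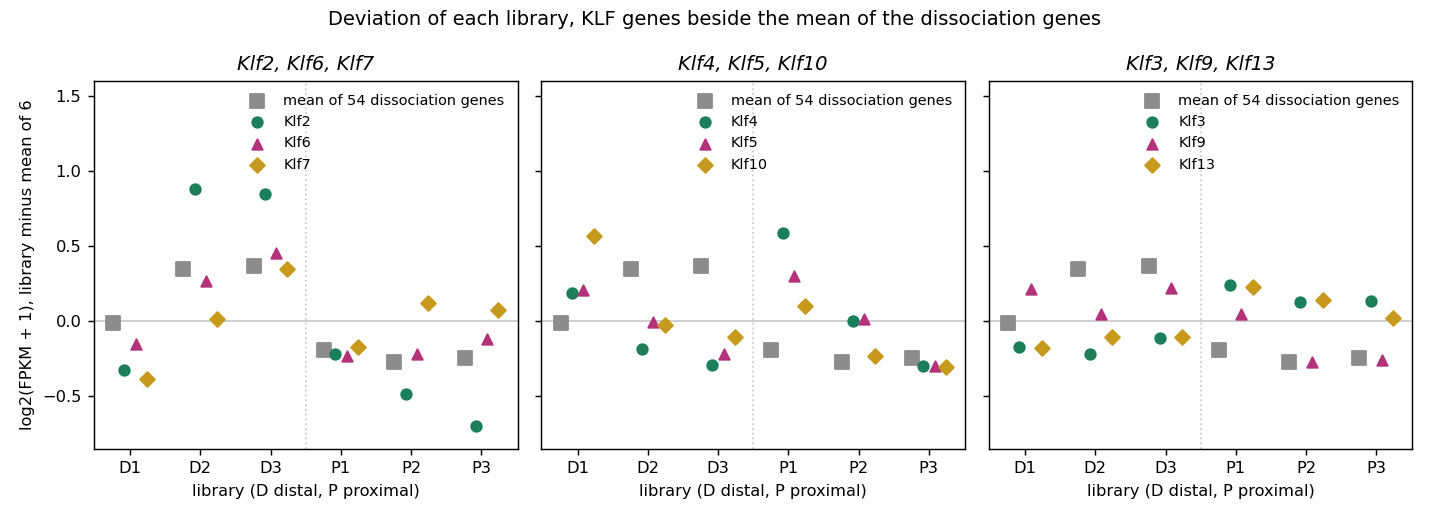
Deviation of each library from the gene's mean over 6 libraries, in log2(FPKM + 1), for the 9 KLF genes in 3 panels, with squares for the mean over 54 dissociation genes (D distal, P proximal). Klf2 and Klf6 are high in distal libraries 2 and 3 like the squares (0.35 and 0.37), Klf4, Klf5 and Klf10 are highest in library 1 of each group, and Klf3 and Klf13 are on the opposite side.

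Of the dissociation lists themselves, 4 of 20 AP-1 and immediate early genes were lower in proximal cells, against 2.5% of all tested genes, and none higher. Their median difference was -0.74, against -0.01 over all tested genes. The 4 lower genes were Ier2 at -0.95, Csrnp1 at -0.76, Junb at -0.71 and Egr2 at -1.19 (limma, adjusted p = 0.00838, 0.0102, 0.0280 and 0.0429). Of the 14 heat shock genes 1 was lower, the chaperone gene Hspa8 at -0.82 (limma, adjusted p = 0.0323), and the median was -0.50. None of the 20 feedback and stress genes passed by limma, and their median was -0.24. Of these genes 6 had an unadjusted p under 0.05, against 24.1% of all tested genes. The genes of highest level were Ier3 (-0.50), Junb and Egr1 (-1.54) in the first list, Hspb1 (-0.30), Hspa1b (-1.01) and Hspa1a (-1.08) among heat shock genes, and Errfi1 (-0.02), Zfp36 (-0.65) and Cebpb (-0.37) among feedback genes; apart from Junb these did not pass. Hspa1a and Hspa1b are near-identical copies between which reads could be split. The count of dissociation genes called as lower, 5 of 54 over all libraries, depended on the libraries. It was 35, with 2 higher, without both libraries numbered 1, beside the 3 of 9 KLF members, where 13.6% of all genes passed as lower. It was 23 without distal library 1 (6.03% of all genes lower) and 11, with 1 higher, without proximal library 1 (5.46%). It was 1 without distal library 2, distal library 3 or proximal library 2 (0.439%, 0.593% and 0.524% of all genes lower), and 2 without proximal library 3 (0.726%). No KLF member passed in those fits, where a smaller share of all genes passed as lower than the 2.5% with all libraries.

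The genes closest to each member in pattern were found among 6610 protein-coding genes of a mean of at least 5 FPKM, by the root mean square difference of centred log2(FPKM + 1) over the 6 libraries. For Klf2 these were Pdgfc (0.153), the AP-1 gene Fos (0.155) and Tnfrsf19 (0.161). Fos was at 219, 405 and 389 FPKM in the distal and 175, 184 and 155 FPKM in the proximal libraries, a difference of -0.93 (limma, adjusted p = 0.0513). Pdgfc and Tnfrsf19 were lower in proximal cells, at -0.97 and -1.08 (limma, adjusted p = 0.0485 and 0.0360). For Klf6 the closest were Ate1 (0.0300), 4921524J17Rik and Ccng2, for Klf3 Anxa11 (0.0292), G6pdx and Cast, for Klf13 Bcar1 (0.0243), Isca2 and Itprid2, and for Klf9 Txnl4a (0.0321), P4hb and Rbm42. They were Tmem258 (0.0429), D10Wsu102e and Ndufa1 for Klf10, Crem (0.0754), Thbs1 and Klhl21 for Klf4, Stard7 (0.0341), Syvn1 and Zc3h18 for Klf5, and Macc1 (0.0644), Psmg2 and Llgl2 for Klf7. Among the members themselves, Klf3 and Klf13 were the closest pair (0.0656), followed by Klf4 and Klf5 (0.143), and Klf2 and Klf4 were the farthest apart (0.789).

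Of 17 other genes of the KLF and SP family, 8 passed the filter, 9 did not, and Sp9 was listed at 0 in every library. None of the 8 passed the limma test, 1 (Klf15) had an unadjusted p under 0.05, and all 8 differences were negative, with a median of -0.25. Klf15, a metabolic and glucocorticoid-responsive factor, was at 1.93, 5.54 and 5.00 FPKM in the distal and 2.06, 2.26 and 1.79 FPKM in the proximal libraries. Klf11, a TGF-beta-inducible factor related to Klf10, was at 7.33, 20.4 and 22.2 FPKM in the distal and 7.64, 10.6 and 13.3 FPKM in the proximal libraries. Both had distal libraries 2 and 3 high, as in Klf2 and Klf6, and distal library 1 low. Without both libraries numbered 1 they passed as lower, Klf15 at -1.05 and Klf11 at -0.79 (limma, adjusted p = 0.00619 and 0.0106). That fit leaves out the low distal library, so it restates their arrangement. Klf16 was at 37.6, 25.0 and 21.6 FPKM and at 30.5, 22.1 and 18.0 FPKM, highest in library 1 of each group as in Klf4, Klf5 and Klf10. The SP factors, which bind the same GC-rich elements, had differences of -0.16 for Sp1, -0.06 for Sp2, -0.19 for Sp3, -0.25 for Sp4 and -0.30 for Sp8.

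Genes that act with or beside the members were read from 4 further lists. Of 19 cofactors and regulators, among them the CtBP and Sin3 corepressors and the ubiquitin ligases that act on KLFs, none passed by limma. An unadjusted p under 0.05 was found in 4, against 24.1% of all tested genes, and the median was -0.05. Those 4 had all proximal libraries above all distal ones, as did 15.9% of all tested genes. They were the ligase genes Smurf1 (0.57) and Wwp1 (0.31), the kinase gene Mapk7 (0.38), which acts upstream of Klf2 and Klf4, and its target Mef2d (0.23). Of 10 TGF-beta targets, Pmepa1 was higher in proximal cells at 0.51 and Bambi lower at -0.70 (limma, adjusted p = 0.0381 and 0.0280). Of 11 glucocorticoid-responsive genes none passed by limma and 5 had an unadjusted p under 0.05, against 24.1% of all tested genes. Of their differences 10 were negative, with a median of -0.47. The 4 glucocorticoid-responsive genes with the smallest p were Mt2 at -0.68, Tsc22d3 at -1.24, Mt1 at -0.62 and Pdk4 at -0.47. Tsc22d3, the glucocorticoid-induced leucine zipper gene, had distal libraries 2 and 3 high, at 20.4, 55.1 and 55.6 FPKM in distal and 13.3, 16.7 and 19.3 FPKM in proximal cells. The metallothionein gene Mt2 did not have distal library 1 low, at 5468, 5047 and 5187 FPKM in distal and 2692, 3346 and 3845 FPKM in proximal cells.

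Genes known as targets of Klf2 and Klf4 in vessels were read beside the members. The list was not split into genes that these factors induce and genes that they repress, so its count and median do not measure their activity. Of 8 tested, 5 were higher in proximal cells, Sele at 1.99, S1pr1 at 1.64, Thbd at 0.96, Vcam1 at 1.74 and Kdr at 0.91 (limma, adjusted p = 0.0173, 0.0179, 0.0397, 0.0449 and 0.0462), and none lower, with a median of 0.97. Of 10 endothelial markers tested 6 were likewise higher in proximal cells and none lower, with Eng at 1.24 and Emcn at 1.78 (limma, adjusted p = 0.0245 and 0.0263). Kdr is in both lists and is counted in each. The summed level of the endothelial markers was 21.4, 7.19 and 11.4 FPKM in distal cells and 42.2, 40.4 and 30.6 FPKM in proximal cells. Distal library 1 was thus the highest of its group for these markers and the lowest for Klf2. In the proximal group both fell from library 1 to library 3, Klf2 at 3.50, 2.74 and 2.23 FPKM. Fibroblast markers were higher for 6 of 8 and nerve and glia markers for 3 of 4 tested. All these counts are to be read against the 4.55% of all tested genes that were higher in proximal cells. The fibroblast marker of highest level, Dcn, did not pass and had all distal libraries above all proximal ones, at 769 against 679 FPKM on average. Of 4 leukocyte markers tested none passed by limma, and none had an unadjusted p under 0.05. The part of other cell types in the level of any KLF gene was not tested. In RNA from sorted pools, fewer cells of a type and less RNA per cell cannot be told apart.

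The libraries were of like depth. The widths of the deposited intervals correspond to 21700000 to 27800000 fragments per library if they reflect counting alone, and 9795 to 10013 genes reached 1 FPKM in each. Basal markers were present in all libraries, with 5 of 12 passing as higher in proximal cells and none as lower. Over all tested genes these shares were 4.55% and 2.5%. Of the 12 differences of the basal markers, 4 were negative. In 2 basal markers, Krt14 and Krt17, all distal libraries were above all proximal ones, and in 7 the reverse, against 13% and 15.9% of all tested genes. Of 9 markers of proximal luminal progenitors, 7 were higher in proximal cells, against 4.55% of all tested genes. Luminal markers were also present in all 6 libraries, and of 11 tested 2 were lower in proximal cells, against 2.5% of all tested genes.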

How the data were processed

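RNA from 3 distal and 3 proximal basal-cell samples was amplified with a kit primed by random and oligo(dT) primers and read on a HiSeq instrument, per the labels' protocols. Reads were handled with bcl2fastq 1.8.3, TopHat and Cufflinks on mm10, per the submitters' processing notes; versions of the last 2, the annotation and strand use are not given in the sources used here. The authors deposited FPKM per transcript with an interval and a status, per the file headers. The deposited coverage of each transcript, a signal not scaled to depth per the file headers, was not used for any result.

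Of 63241 transcripts, 53804 were matched to GENCODE M21 genes by span and length (49609), by exons (3714) or by span with length left out (481). The last step also asked for exons of the gene worth at least 0.8 of the transcript length, and for at least 0.95 of the transcript span inside the gene. It allowed other genes to overlap. FPKM were summed per gene, and matched transcripts held 94.2% of FPKM. The span step was added because the expressed Klf3 transcripts matched no gene otherwise. Genes whose mean over the 6 libraries reached 1 FPKM were tested on log2(FPKM + 1), with a pseudocount of 1 FPKM, by limma 3.58.1 in R 4.3.3 with a variance trend, two-sided, Benjamini-Hochberg adjusted over 10313 genes, at 0.05; the fit was tested on simulated data. No scaling was applied beyond the deposited one. Genes to name were drawn from all members, the tested genes of the wider family, up to 4 genes per other list by smallest p (markers mostly as counts), the 3 genes of highest level in each dissociation list and the 3 genes closest to each member; Kdr was named after its value was seen. The members and lists were chosen with earlier results of these data known. Other pseudocounts, filters, scalings, matchings, a replicate block and fits without single libraries were tried.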

Additional observations from a re-analysis of the deposited data

How the results depend on the processing

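No KLF member passed the limma test with a pseudocount of 0.1 or 0.5 FPKM, no filter or a filter at a mean of 5 FPKM, median ratio or quantile scaling, no variance trend, or other matching of transcripts, 1 of which (without matching by span) was chosen after seeing the data. Klf2 is not tested at the 5 FPKM filter, Klf3 and Klf5 with closely matched transcripts only, Klf3 without matching by span, and Klf3, Klf7, Klf9 and Klf13 where only transcripts inside the span of 1 gene count. The count of all genes lower in proximal cells was 138 with no filter, and 277 higher and 168 lower were called at the 5 FPKM filter, and 269 and 148 inside 1 gene's span, where fewer genes were tested. Leaving out both libraries numbered 1 called 930 genes as higher and 1405 as lower, with 3 KLF members lower. Leaving out 1 library at a time gave 207 to 543 genes higher, 45 to 624 lower and 0 to 2 KLF members lower.

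Uncalled differences near 0 changed sign. Klf7 was -0.01 after quantile scaling (-0.00898), -0.0268 with closely matched transcripts only and -0.0845 without both libraries numbered 1, where Klf5 was -0.0320. With 1 library left out Klf7 ranged from -0.18 to 0.19, Klf5 from -0.14 to 0.16, Klf4 from -0.0477 to 0.39, Sp2 from -0.10 to 0.00 (0.00292) and Errfi1 from -0.0504 to 0.00195; Errfi1 was 0.17 after quantile scaling. The cause was not tested.

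With the replicate number as a block, 895 genes (8.68%) were higher and 747 (7.24%) lower, and 1 KLF member, Klf3, passed as higher (limma, adjusted p = 0.0312). Of the 54 dissociation genes, 25 passed as lower and 2 as higher under the block. The labels do not say that numbers pair libraries, and deviations from the group means correlated at 0.38, 0.04 and 0.28 between same-numbered libraries. Distal library 2 correlated best with proximal library 3, at 0.13, so not every library went with its own number.

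Among members with 1 expressed transcript, counting error is widest for Klf2. An exact 0 in these files can be a failed estimate.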
